A study of Danio rerio with 6 samples.

Results

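The lens crystallin genes of zebrafish were examined in heads of *prpf31* mutants and siblings at 36 hpf (hours post-fertilization). They were taken as every gene of the deposited tables whose zebrafish symbol begins with cryaa, cryab, cryba, crybb, crygm, crygn or crygs. This rule gave 57 of the 34965 genes, of which 3 are alpha, 13 are beta and 41 are gamma crystallins. The rule uses the symbols alone.

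Crystallins are the bulk proteins of the transparent lens, packed at high concentration into the elongated fibre cells, where they set the refractive index. Alpha crystallins belong to the small heat shock proteins and act as chaperones, whereas beta and gamma crystallins are structural proteins that share the Greek key fold. Fish lenses carry a large gamma M family (crygm) in addition to gamma N (crygn) and gamma S (crygs), and primary fibre cells already accumulate crystallin mRNA in the embryonic eye at the stage sampled here.

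Bulk RNA-seq of the AB strain compared 3 libraries of siblings, labelled wild type, with 3 libraries of *prpf31* knockouts, each library being poly(A)-selected RNA from a pool of 35 dissected heads of 1 genotype. *prpf31* encodes a core splicing factor, and the knockout is a stable CRISPR/Cas9 line with a combined deletion and insertion in the gene. Per the paper, homozygous mutants died within days of fertilization and heterozygotes had no retinal degeneration, so the mutants are taken as homozygous embryos of heterozygous carriers. The gene is supplied maternally in early embryos, so these mutants were likely not without any Prpf31 from fertilization on. The heads hold lens, retina, brain, skin, muscle and blood, so fewer lens cells and less crystallin mRNA per lens cell cannot be told apart in these data.

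Total counts ranged from 58706617 to 66381302 per library. The count of *prpf31* was 2310, 2480 and 2636 in siblings and 1203, 1663 and 1864 in mutants, a log2 fold change of −0.62 with an adjusted p of 0.018 in edgeR's quasi-likelihood test. Mutant 1 stood apart from the other 5 libraries in composition, with a TMM factor (edgeR's correction of library size for composition) of 0.816 against 1.02 to 1.06. All comparisons are therefore given for the 3 mutants and again for mutants 2 and 3 alone. Levels of 1 gene are given as CPM (the count relative to the library size after TMM scaling), and levels of different genes are compared as FPKM, which also corrects for gene length.

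At 36 hpf the expressed crystallins were mainly beta crystallins and a subset of the gamma crystallins. The highest level per length in siblings was that of crybb1, a basic beta crystallin, at 273 ± 22.3 FPKM (mean ± SD, n = 3). It was followed by crygn, a gamma N crystallin, at 248 ± 45.9 FPKM, and cryba2b, an acidic beta crystallin, at 236 ± 40.1 FPKM. These 3 levels differed by less than the sum of their SDs. The highest gamma M genes were crygm2d13 at 169 ± 37.0 FPKM and crygm2d8 at 161 ± 44.1 FPKM in siblings. Cryaa, the alpha A crystallin, was much lower at 8.57 ± 2.17 FPKM.

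A large share of the gamma family had little or no signal. How reads shared by near-identical genes were counted is not known, so a low count need not mean little mRNA. No library held a count for crygm1, crygm2a, crygm2b, crygm6, crygm7 or crygs3, and 12 further members had fewer than 100 counts over the 6 libraries together. Of these 18 members, 15 are gamma crystallins, and their highest value in any library was 0.489 FPKM. Both cryab genes, which encode alpha B crystallin, belong to this group. Cryab (ENSDARG00000101380) had 14, 12 and 8 counts in siblings and 6, 7 and 16 counts in mutants, and the groups overlapped. Cryab (ENSDARG00000042621) had 1, 0 and 5 counts in siblings and 4, 1 and 2 counts in mutants, which was too few to test. All of the gamma S genes (both crygs genes, crygs3 and crygs4) were also among these 18.

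Total crystallin mRNA was lower in every mutant library than in every sibling library, and far lower in mutant 1 than in mutants 2 and 3. Summed over the 57 genes, crystallins took 0.299%, 0.296% and 0.390% of all counts in siblings, 0.0425% in mutant 1, and 0.234% and 0.239% in mutants 2 and 3. The sibling sum was 3130 ± 472 CPM (SD, n = 3). Mutant 1 reached 16.7% of this sum, and mutants 2 and 3 reached 73.1% and 73.4%.

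The sums are given next by class, and differences between the classes were not tested. The summed alpha crystallins, mostly cryaa, were at 10.3% of the sibling mean in mutant 1 and at 28.5% and 36.0% in mutants 2 and 3. Beta crystallins were at 13.6%, 72.6% and 68.1%, and gamma crystallins at 22.4%, 74.5% and 83.5% of the sibling mean in mutants 1, 2 and 3. The lowest sibling sum was 81.0% of the sibling mean for alpha, 91.2% for beta and 85.1% for gamma crystallins, so mutant 3 lay close to sibling 2 for the gamma sum. Beta crystallins made up 65.6%, 66.3% and 62.8% of crystallin counts in siblings, 52.9% in mutant 1, and 64.3% and 60.1% in mutants 2 and 3, so this share overlapped between the groups.

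**Figure D1:**
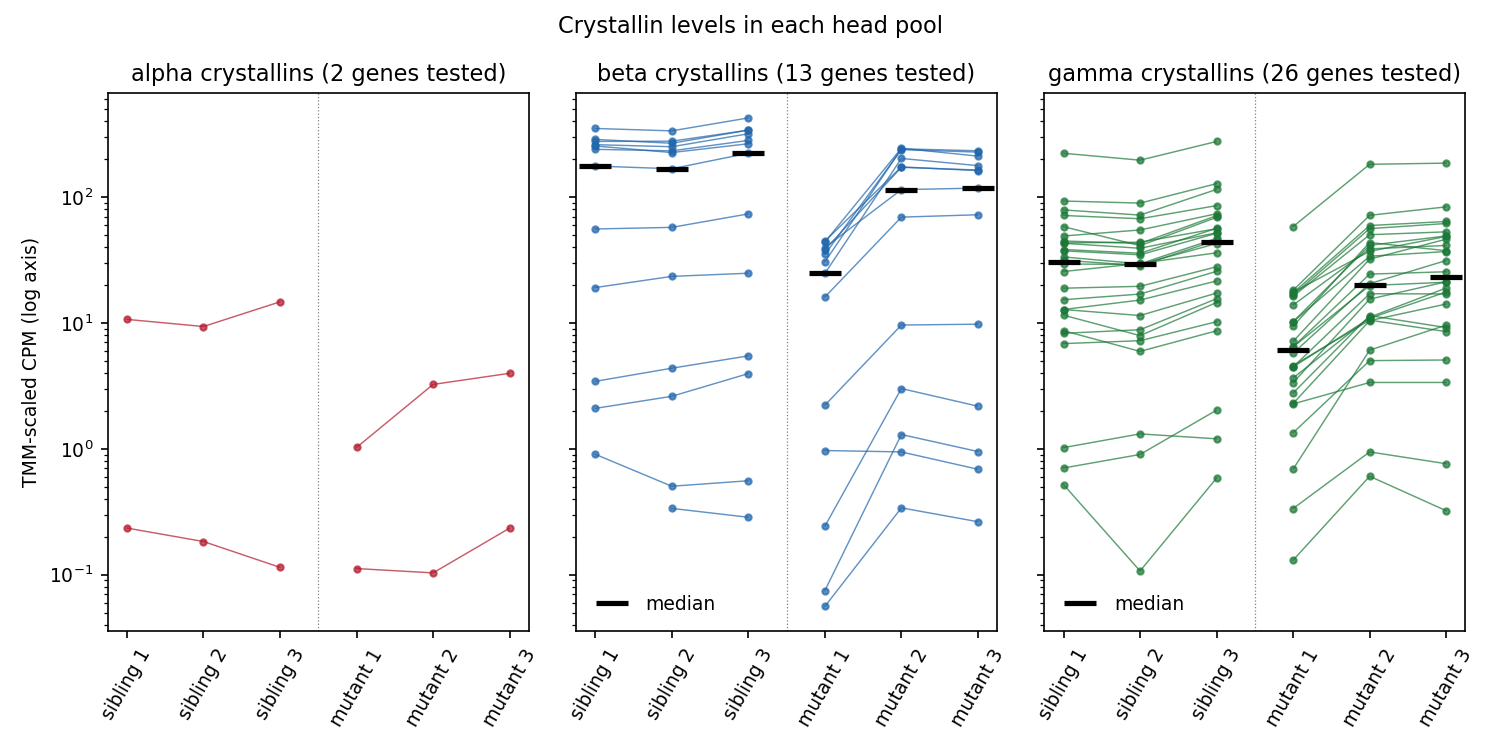
Levels of the tested alpha (2), beta (13) and gamma (26) crystallin genes in each head pool, in TMM-scaled CPM on a log axis. Each line is 1 gene across siblings 1 to 3 and mutants 1 to 3, a count of 0 is not drawn, and black bars are the class median in a library; nearly all lines dip in mutant 1 and come back towards the sibling level in mutants 2 and 3.

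The comparison of all 3 mutants with siblings asked whether crystallin mRNA differs between the genotypes. Of the 57 members, 41 passed edgeR's filter on low counts (2 alpha, 13 beta and 26 gamma). At an adjusted p of 0.05 or lower (edgeR's quasi-likelihood test, Benjamini-Hochberg over all 24277 genes tested), 1 member, cryaa, was lower in mutants, whereas 3.83% of all genes tested were. None was higher, against 3.96% of all genes. Cryaa also changed by at least 2-fold, a criterion that 1.22% of all genes met in this direction. At an unadjusted p under 0.05, 12 members were lower (12.5% of all genes) and 1 was higher (11.8% of all genes). DESeq2 called 7 lower and 1 higher member, against 7.22% and 7.39% of all genes, and limma on log2(FPKM + 1) called 1 lower and 0 higher, against 3.41% and 2.05% of all genes.

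The estimates were nevertheless mostly negative. A negative log2 fold change was found for 37 of the 41 members, against 48.3% of all genes tested. The median was −1.06 for beta and −0.70 for gamma crystallins, against 0.019 for all genes. In 20 of the 41 members every mutant library lay below every sibling library, which was the case for 17.4% of all genes, and in 1 member every mutant lay above, against 14.9% of all genes. The standard errors were wide, with a median of 0.47 on the log2 scale over the members, compared with 0.19 when mutant 1 was left out.

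The single call of this comparison depended on which pools entered the fit. No member was lower at the same threshold when any of siblings 1 to 3, mutant 2 or mutant 3 was left out, when 0.754%, 0.450%, 0.444%, 1.61% and 0.827% of all genes were lower, and 12 were lower without mutant 1 (8.17% of all genes). With the replicate number as a block in the fit, which pairs each mutant pool with the sibling pool of the same number, 11 members were lower (1 alpha, 4 beta and 6 gamma) and 1 was higher, while 6.61% and 6.09% of all genes were called in these directions.

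In mutants 2 and 3, whose levels were close to each other, the reduction was smaller in size and the standard errors were narrower. Mutant 1 was left out because it was known to stand apart, which by itself narrows the spread. The spread between mutant pools may thus be understated in this comparison. Of 42 members tested, 12 were lower (1 alpha, 7 beta and 4 gamma), against 8.17% of the 24821 genes tested, and none was higher, against 8.22% of all genes. At an unadjusted p under 0.05 there were 18 lower members (15.9% of all genes) and 1 higher member (15.0% of all genes). DESeq2 called 17 lower and 1 higher member, against 10.7% and 11.2% of all genes, and limma on log2(FPKM + 1) called 10 lower and 1 higher, against 9.09% and 7.54% of all genes. The change was at least 2-fold in 3 of the 12, namely cryaa, cryba1l2 and crybb1l3, a criterion met by 1.45% of all genes. A negative estimate was found for 33 of the 42, against 51.2% of all genes. The median log2 fold change was −0.65 for beta and −0.34 for gamma crystallins, against −0.012 for all genes. Both mutants lay below all siblings in 20 members (24.0% of all genes) and above all siblings in 2 (23.6% of all genes).

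Most of the 12 calls were lost when either mutant pool was left out. Without mutant 2 there were 5 lower members (2.73% of all genes), and without mutant 3 there were 4 (1.93% of all genes). Cryaa, cryba1l2, cryba4 and crygmxl2 were called in each of the 14 other settings tried for this comparison. With the replicate block, in which sibling 1 has no partner, 24 members were lower (1 alpha, 9 beta and 14 gamma) and 3 were higher, against 14.9% and 14.7% of all genes.

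**Figure D2:**
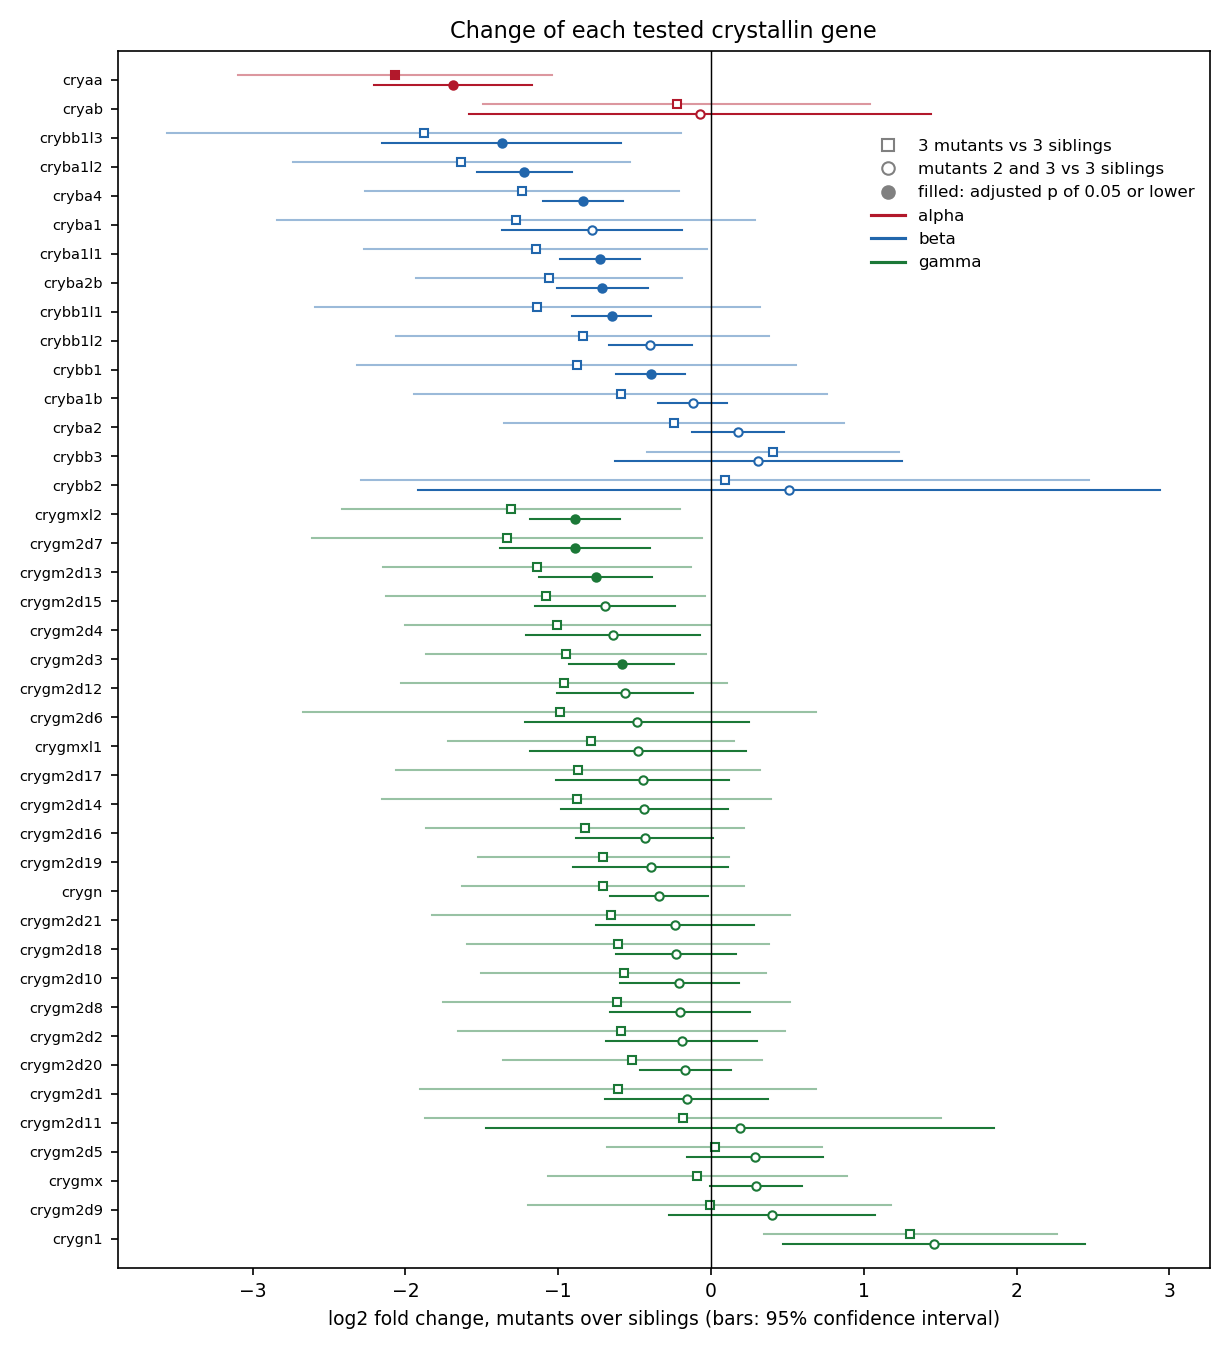
Log2 fold change of the 41 crystallin genes tested with all 3 mutants, mutants over siblings, with its 95% confidence interval. Squares are the 3 mutants and circles are mutants 2 and 3 alone, each against the 3 siblings, and filled symbols have an adjusted p of 0.05 or lower; red, blue and green are alpha, beta and gamma crystallins. Cryaa is the only filled square, and the circles have shorter intervals than the squares for nearly all genes.

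Cryaa, the lens chaperone, had the most negative estimate of all members in both comparisons. Its counts were 637, 613 and 1030 in siblings, 55 in mutant 1, and 220 and 272 in mutants 2 and 3. In CPM these were 10.7, 9.36 and 14.7 in siblings and 1.02, 3.24 and 3.98 in mutants, so all mutants lay well below the lowest sibling. The log2 fold change was −2.07 (SE 0.44, adjusted p = 0.0334 in edgeR's quasi-likelihood test) with the 3 mutants and −1.69 (SE 0.22, adjusted p = 0.0034) with mutants 2 and 3. In the 6 fits that each leave 1 library out of the comparison with the 3 mutants, its estimate lay between −2.43 and −1.69. The adjusted p of edgeR's test there ranged from 0.0034 to 0.127. It passed in 1 of these 6, the fit without mutant 1, which is the comparison of mutants 2 and 3 itself. Leaving 1 library out of that comparison gave estimates between −1.84 and −1.48. Cryab (ENSDARG00000101380) had log2 fold changes of −0.22 and −0.07, with adjusted p of 0.84 and 0.956 in edgeR's test and wide 95% confidence intervals, from −1.49 to 1.04 and from −1.58 to 1.44.

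Among beta crystallins, the most negative estimates were those of crybb1l3 and cryba1l2, 2 genes of low level. Crybb1l3 had 2.09, 2.61 and 3.96 CPM in siblings and 0.0745, 1.3 and 0.951 CPM in mutants, the value of mutant 1 resting on 4 counts. Cryba1l2 had 19.1, 23.4 and 24.8 CPM in siblings and 2.22, 9.62 and 9.77 CPM in mutants. The mutants were below all siblings for both genes. In mutants 2 and 3 the log2 fold change was −1.37 (SE 0.33, adjusted p = 0.0322 in edgeR's test) for crybb1l3 and −1.22 (SE 0.13, adjusted p = 0.0017) for cryba1l2. With the 3 mutants their adjusted p was 0.164 and 0.0807, and 0.0425 and 0.0164 with the replicate block.

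The abundant acidic beta crystallins cryba4, cryba1l1 and cryba2b fell in mutants 2 and 3 by similar amounts. Cryba4 had 287, 267 and 340 CPM in siblings and 44.6, 173 and 162 CPM in mutants. Cryba1l1 had 261, 251 and 318 CPM in siblings and 38.2, 172 and 164 CPM in mutants. Cryba2b had 176, 168 and 223 CPM in siblings and 39.6, 114 and 118 CPM in mutants. In all 3 genes mutants 2 and 3 were near each other and below the lowest sibling, and mutant 1 was several times lower again. Their log2 fold changes in mutants 2 and 3 were −0.84 (SE 0.11, adjusted p = 0.0037 in edgeR's test), −0.73 (SE 0.11, adjusted p = 0.0063) and −0.71 (SE 0.13, adjusted p = 0.0106). With the 3 mutants, none of the 3 passed, at adjusted p of 0.139, 0.196 and 0.134 in edgeR's test, whereas with the replicate block cryba4 and cryba2b passed at 0.0429 and 0.0363 and cryba1l1 had 0.0591.

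The basic beta crystallins crybb1l1 and crybb1 were also lower in mutants 2 and 3, and their difference from the acidic ones was not tested. Crybb1l1 had 351, 336 and 425 CPM in siblings and 30.5, 242 and 233 CPM in mutants. Crybb1 had 255, 226 and 265 CPM in siblings and 24.7, 203 and 178 CPM in mutants. Mutant 1 was at 8.24% and 9.94% of the sibling mean for these genes. In mutants 2 and 3 the log2 fold change was −0.65 (SE 0.11, adjusted p = 0.0089 in edgeR's test) for crybb1l1 and −0.39 (SE 0.10, adjusted p = 0.0331) for crybb1. The call of crybb1 was kept in 7 of 14 other settings, and that of crybb1l3 in 8.

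Not all abundant beta crystallins moved in this way. Cryba1b, the other abundant acidic beta crystallin, had 239, 233 and 282 CPM in siblings, 35.0 CPM in mutant 1, and 238 and 228 CPM in mutants 2 and 3. Its level in mutants 2 and 3 overlapped with siblings, and the log2 fold change was −0.12 (SE 0.10, adjusted p = 0.465 in edgeR's test). Crybb2, whose protein is a major component of mature mammalian lenses, and crybb3 were under 1 CPM in every library and the groups overlapped. Cryba1 and crybb1l2 were lower in mutants 2 and 3 with the replicate block (edgeR's adjusted p of 0.0106 and 0.0101, against 0.0786 and 0.0573 without it). Of the 14 other settings, only the block and DESeq2 called them.

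The 4 gamma crystallins called in mutants 2 and 3 were all gamma M genes, as were all 27 tested except crygn and crygn1. Crygmxl2 had 71.4, 67.3 and 85.5 CPM in siblings and 9.42, 43.5 and 37.5 CPM in mutants. Crygm2d7 had 29.4, 29.1 and 42.7 CPM in siblings and 3.35, 15.5 and 21.2 CPM in mutants. The log2 fold change in mutants 2 and 3 was −0.89 for both, with an SE of 0.13 and an adjusted p of 0.0046 in edgeR's test for crygmxl2, and an SE of 0.21 and an adjusted p of 0.0293 for crygm2d7. Crygm2d13 had 93.0, 89.5 and 128 CPM in siblings and 17.3, 59.4 and 64.0 CPM in mutants. Crygm2d3 had 25.6, 29.7 and 36.0 CPM in siblings and 6.44, 19.8 and 21.1 CPM in mutants. Their log2 fold changes were −0.75 (SE 0.16, adjusted p = 0.0194) and −0.58 (SE 0.15, adjusted p = 0.0361) by the same test. All 4 had mutants below siblings without overlap, and with the 3 mutants their adjusted p was between 0.145 and 0.191, or between 0.0351 and 0.044 with the replicate block. The call of crygm2d3 was kept in 7 of 14 other settings.

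The other abundant gamma crystallins were reduced mainly in mutant 1. Crygn had 223, 196 and 276 CPM in siblings, 58.3 CPM in mutant 1, and 182 and 186 CPM in mutants 2 and 3. All mutants were below the siblings, but the log2 fold change in mutants 2 and 3 of −0.34 (SE 0.14) had an adjusted p of 0.137 in edgeR's test, and of 0.0235 with the replicate block. Crygm2d8 had 79.0, 71.9 and 115 CPM in siblings and 18.2, 71.6 and 83.6 CPM in mutants, and mutants 2 and 3 overlapped with siblings (log2 fold change −0.20, SE 0.20, adjusted p = 0.549). All 21 crygm2d genes lie in a single run of 31 consecutive crystallin genes in the RefSeq order of the GRCz12tu assembly. Near-identical copies can share reads, and how shared reads were split in counting is not known, so the values of single crygm2d genes are uncertain.

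A few members did not follow the class, and they are named here after their values were seen. Crygn1, a low-level gamma N gene, was the 1 member with every mutant above every sibling. It had 0.703, 0.901 and 2.03 CPM in siblings and 2.27, 3.36 and 3.36 CPM in mutants. The log2 fold change was 1.3 (SE 0.41, adjusted p = 0.101 in edgeR's test) with the 3 mutants and 1.46 (SE 0.42, adjusted p = 0.0564) with mutants 2 and 3. These did not pass, although the replicate block gave adjusted p of 0.023 and 0.0122 in edgeR's test. Crygn1 was also called higher in both comparisons with DESeq2 and without sibling 3. With mutants 2 and 3 it was further called with at least 10 counts in every library and with limma on log2(FPKM + 1). In all it passed in 3 of 15 other settings with the 3 mutants and in 5 of 14 with mutants 2 and 3. Crygmx had 43.2, 43.8 and 56.1 CPM in siblings, 16.6 CPM in mutant 1, and 56.1 and 61.7 CPM in mutants 2 and 3. Cryba2 had 55.8, 57.4 and 73.5 CPM in siblings, 16 CPM in mutant 1, and 69.3 and 72.3 CPM in mutants 2 and 3. For both genes only mutant 1 lay below the siblings, and neither passed in either comparison with all its libraries and without the replicate block. The log2 fold changes in mutants 2 and 3 were 0.30 (SE 0.13, adjusted p = 0.17 in edgeR's test) and 0.18 (SE 0.13, adjusted p = 0.404). With the block crygmx was higher in mutants 2 and 3, at 0.24 and an adjusted p of 0.0456 in edgeR's test. It was also higher there when sibling 3 was left out (adjusted p = 0.0362 in edgeR's test), and in no other setting.

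Ratios between 2 genes within a library do not depend on how the library was scaled. They were taken for the 5 runs of exactly 2 neighbouring crystallin genes in the RefSeq order of GRCz12tu, leaving out the run of 31 genes, and for 2 pairs with the same family name that are not neighbours and were added with the values known. The mutants and siblings did not overlap in 5 of these 7 pairs, the 2 added ones included, and this is given as a description, since the share among other gene pairs was not computed. The 2-sided exact permutation p was then 0.1, the smallest that 3 against 3 libraries allow, or 0.14 after Benjamini-Hochberg adjustment over the 7 pairs, so none of these ratios can pass a threshold of 0.05.

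The ratio of crygmx to its neighbour crygmxl2, both gamma M genes, was 0.606, 0.651 and 0.656 in siblings and 1.76, 1.29 and 1.64 in mutants. The order of the 2 genes was thus turned round in all 3 mutant pools, mutant 1 included. The ratio of cryba1 to its neighbour crybb1l3 was 1.64, 1.67 and 1.38 in siblings and 3.25, 2.32 and 2.29 in mutants, and that of cryba1l2 to its neighbour crybb1l2 was 0.0690, 0.0843 and 0.0730 in siblings and 0.0505, 0.0394 and 0.0462 in mutants. Cryba1l2 was thus reduced by more than its neighbour in all 3 mutant pools, and crybb1l3 in mutants 2 and 3. The cryba1 to crybb1l3 ratio of mutant 1 rests on 13 and 4 counts, too few to fix it.

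Of the pairs named alike, cryba2 to cryba2b had ratios of 0.316, 0.342 and 0.330 in siblings and 0.404, 0.605 and 0.614 in mutants. Crygn1 to crygn had ratios of 0.00316, 0.00459 and 0.00734 in siblings and 0.0390, 0.0185 and 0.0181 in mutants. The neighbours crybb1 and cryba4, and crybb1l1 and cryba1l1, overlapped instead: mutant 1 had the lowest ratio of the 6 libraries in both pairs, at 0.554 and 0.799, and mutants 2 and 3 had the highest, at 1.17 and 1.1 and at 1.40 and 1.42.

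**Figure D3:**
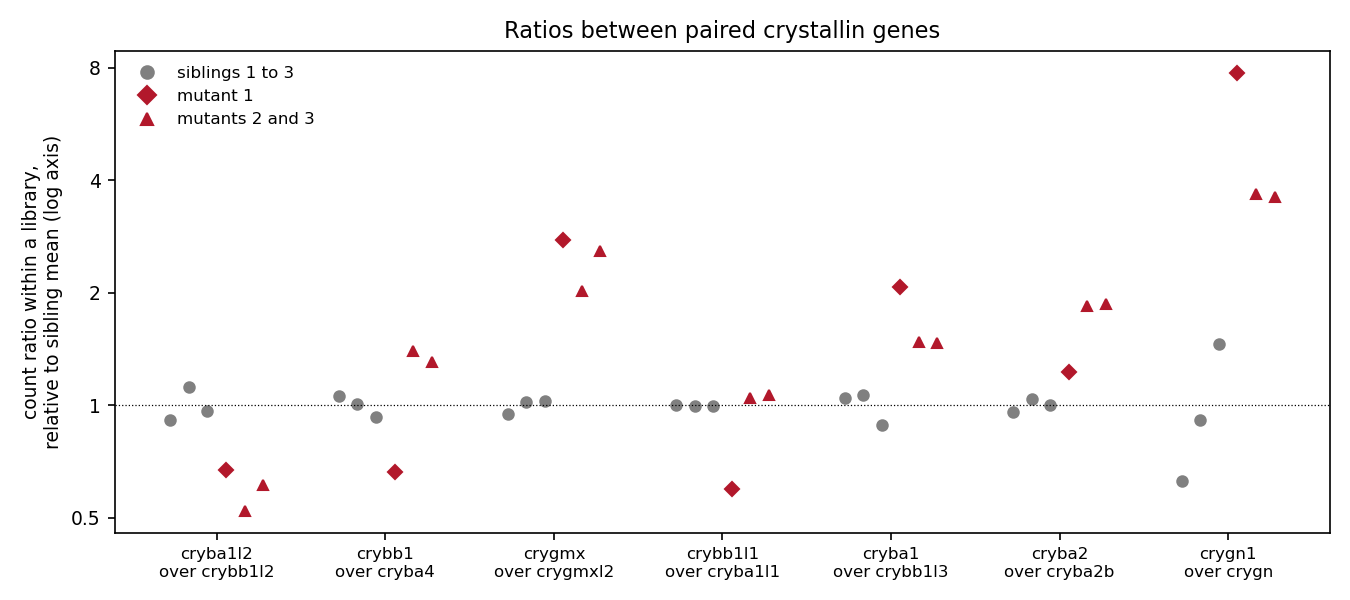
Count ratio of paired crystallin genes within each library, relative to the sibling mean of the pair, on a log axis. Grey circles are siblings, the red diamond is mutant 1 and red triangles are mutants 2 and 3; in the crygmx to crygmxl2 pair all mutants are above all siblings, whereas in the crybb1 to cryba4 and crybb1l1 to cryba1l1 pairs mutant 1 lies below the siblings and mutants 2 and 3 above.

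Mutant 1 had the lowest level of the 6 libraries in 36 of the 41 tested members, against 30.3% of all genes tested. Over the 34 members with at least 1000 counts, it was 2.08 to 11.4 times lower than the mean of mutants 2 and 3, with a median of 3.99. In these members mutant 1 was at 5.47% to 59.1% of the sibling mean (median 17.2%), whereas mutants 2 and 3 together were at 31.2% to 133% (median 74.5%). Other genes of the head also moved in this pool. The 10 genes of retinal progenitors and neurons summed to between 316 and 345 CPM in siblings, 122 CPM in mutant 1, and 301 and 256 CPM in mutants 2 and 3, and mutant 1 was lowest in all 10. The 8 skeletal muscle genes summed to between 32710 and 39938 CPM in siblings, 83200 CPM in mutant 1, and 31642 and 32148 CPM in mutants 2 and 3. Mutant 1 was highest in all 8, and the share of all genes with mutant 1 highest was not computed. With mutants 2 and 3, 4 of the 10 retinal genes were lower and 1 was higher, against 8.17% and 8.22% of all genes. Of the 8 muscle genes 3 were lower and none was higher. The median log2 fold changes were −0.36 for retina and −0.40 for muscle, near the −0.34 of the gamma crystallins. With the replicate block 5 of each list were lower and 1 retinal gene was higher (14.9% and 14.7% of all genes). The 5 skin genes summed to 86.9% to 114% of the sibling mean in siblings, 189% in mutant 1, and 126% and 98.0% in mutants 2 and 3. The 4 red blood cell genes summed to 70.1% to 116% in siblings, 37.3% in mutant 1, and 79.6% and 51.6% in mutants 2 and 3. None of these 4 was called in either comparison without the replicate block, when 3.83% and 8.17% of all genes were lower. With it 3 were lower with the 3 mutants (6.61% of all genes) and 4 with mutants 2 and 3 (14.9% of all genes). The 9 brain and neuron genes summed to 97.0% to 102% of the sibling mean in siblings, 50.9% in mutant 1, and 89.6% and 85.1% in mutants 2 and 3. With the 3 mutants none of the 9 was called, with or without the block. With mutants 2 and 3, 2 were lower (8.17% of all genes), or 5 with the block (14.9% of all genes), and none was higher (8.22% and 14.7%). No gene of these lists was at 0 in any library, and the part of the cell makeup of the pools in the crystallin values was not tested.

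Genes of the lens other than crystallins followed only in part. The summed level of 21 lens fibre genes was at 21.1% of the sibling mean in mutant 1 and at 81.1% and 74.2% in mutants 2 and 3, near the values of the beta and gamma crystallins. The genes of the lens aquaporin mip were a large part of this sum, at 65.0 and 83.1 of 280 CPM in sibling 1. Of 20 fibre genes tested, 1 was lower with the 3 mutants (3.83% of all genes) and 3 were with mutants 2 and 3 (8.17% of all genes). With the replicate block 3 were lower in the first comparison (6.61% of all genes), and 7 lower and 1 higher in the second (14.9% and 14.7% of all genes). The gene lower in both was grifin, a galectin-related protein of lens fibres, which had 3.67, 4.20 and 4.40 CPM in siblings and 0.838, 1.14 and 1.40 CPM in mutants. Its log2 fold change was −1.85 (SE 0.24, adjusted p = 0.0067 in edgeR's test) with the 3 mutants and −1.69 (SE 0.21, adjusted p = 0.0027) with mutants 2 and 3. Mutant 1 was not set apart from mutants 2 and 3 for grifin as it was for the crystallins.

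The other fibre genes called in mutants 2 and 3 were bfsp2, a beaded filament protein, and mip (ENSDARG00000037285), a copy of the lens aquaporin. Bfsp2 had 11.8, 10.4 and 17.6 CPM in siblings and 1.3, 5.40 and 4.50 CPM in mutants (log2 fold change in mutants 2 and 3 −1.43, SE 0.24, adjusted p = 0.0082 in edgeR's test), and this mip copy had 83.1, 95.7 and 106 CPM in siblings and 14.2, 63.9 and 54.6 CPM in mutants (−0.69, SE 0.12, adjusted p = 0.011). With the 3 mutants their adjusted p was 0.0576 and 0.2, or 0.0181 and 0.046 with the replicate block. The median log2 fold change of the fibre genes in mutants 2 and 3 was −0.17, closer to that of all genes than the crystallin medians were. Mutant 1 was the lowest library in 15 of the 20 fibre genes tested (30.3% of all genes). The exceptions were lim2.2, caprin2, birc7, tdrd7a and tdrd7. Their log2 fold changes in mutants 2 and 3 were −1.97, 0.73, 0.29, 1.25 and 0.28. The median without these genes was not computed, and which cells of the head expressed them was not tested.

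The regulators of lens development, 14 genes of transcription factors and the RNA-binding protein gene celf1, summed to 80.5% of the sibling mean in mutant 1 and to 112% and 109% in mutants 2 and 3. Celf1 alone had 123, 118 and 110 CPM in siblings and 147, 153 and 161 CPM in mutants, a large part of this sum. The median of the 15 log2 fold changes was instead negative, at −0.20 with the 3 mutants and −0.14 with mutants 2 and 3, against 0.019 and −0.012 for all genes. Of these 15 genes, prox1 and a maf gene (ENSDARG00000076520) were lower with the 3 mutants, at log2 fold changes of −0.54 (SE 0.13, adjusted p = 0.0465 in edgeR's test) and −0.71 (SE 0.15, adjusted p = 0.0324). Prox1, a factor of fibre cell differentiation, had 21.4, 22.2 and 20.9 CPM in siblings and 12.6, 16.2 and 15.7 CPM in mutants.

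In mutants 2 and 3, 4 regulators were lower and 2 were higher, against 8.17% and 8.22% of all genes, and with the replicate block 5 were lower and 3 higher, against 14.9% and 14.7%. Beside prox1 (−0.44, SE 0.09, adjusted p = 0.0147 in edgeR's test) and this maf gene (−0.64, SE 0.13, adjusted p = 0.0173), the second maf gene (ENSDARG00000015890; −0.41, SE 0.09, adjusted p = 0.0269) and mafa (−0.48, SE 0.12, adjusted p = 0.0379) were lower. In mutant 1, mafa had 38.4 CPM, above the 25.3 to 30.8 CPM of siblings. The second maf gene had 17.6 CPM there, within the 17.2 to 19.6 CPM of siblings. The first had 3.74 CPM, below their 6.66 to 7.24 CPM. Maf proteins bind crystallin promoters in other vertebrates, and a link between Maf and crystallin levels was not tested. A pax6 gene (ENSDARG00000103379), which acts early in eye formation, was higher at 0.33 (SE 0.09, adjusted p = 0.0437 in edgeR's test), and celf1 at 0.42 (SE 0.08, adjusted p = 0.0132). In mutant 1 this pax6 gene had 44.8 CPM, against 74.8 to 84.2 CPM in siblings. Many of these regulators are also expressed in the retina and brain of the same heads.

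The small heat shock genes other than the alpha crystallins did not follow cryaa. The 9 genes summed to 109%, 105% and 85.8% of the sibling mean in siblings, 269% in mutant 1, and 121% and 136% in mutants 2 and 3. With mutants 2 and 3, 1 of them was lower (8.17% of all genes) and none was higher (8.22% of all genes). This gene, hspb6, had 9.61, 7.30 and 6.07 CPM in siblings and 8.55, 3.63 and 3.01 CPM in mutants. Its log2 fold change was −1.21 (SE 0.22, adjusted p = 0.0117 in edgeR's test), while its adjusted p with the 3 mutants was 0.391. It is named after its values were seen. With the replicate block 2 of the genes were higher with the 3 mutants (6.09% of all genes). In mutants 2 and 3 the block gave 3 higher and 1 lower (14.7% and 14.9% of all genes). Mutant 1 was the highest library in 7 of the 9, and the share of all genes with mutant 1 highest was not computed.

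**Figure D4:**
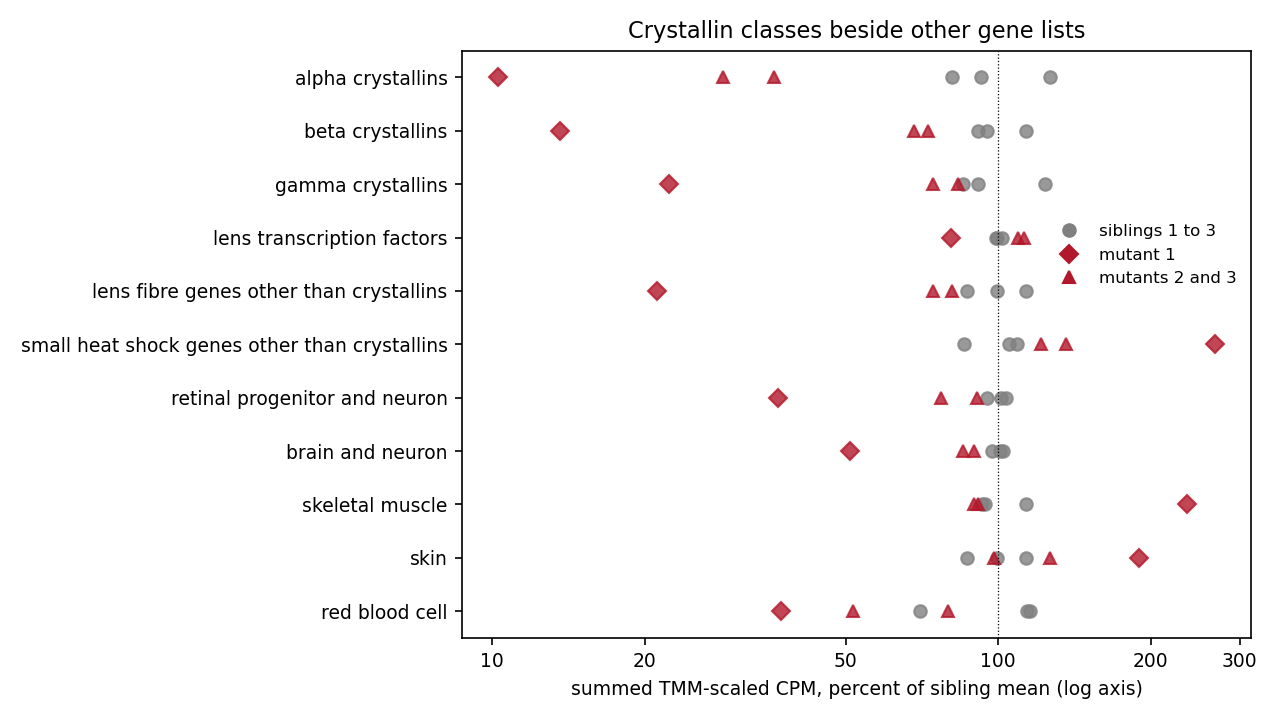
Summed TMM-scaled CPM of the 3 crystallin classes and of 8 other gene lists in each library, as percent of the sibling mean on a log axis. Grey circles are siblings, the red diamond is mutant 1 and red triangles are mutants 2 and 3; mutants 2 and 3 are lowest for alpha crystallins, at 28.5% and 36.0%, and mutant 1 is low for crystallin, lens fibre, retina, brain and blood genes and high for muscle, skin and small heat shock genes.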

How the data were processed

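Per the labels, poly(A) RNA was sequenced from pools of 35 heads (36 hpf), with a kit that does not mark strand. The authors aligned reads to GRCz11 with HISAT2 2.0.4. The submitters' processing notes name HTSeq 0.9.1 for counting, and the methods name featureCounts as well. The annotation is not given in the sources used here. The deposited counts per gene are whole and not normalized, and dividing them by library total and 1 length per gene gives the deposited FPKM.

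The whole table was fitted in edgeR 4.0.16 (R 4.3.3): low genes were removed by filterByExpr, libraries were scaled by TMM, and the quasi-likelihood p was adjusted by Benjamini-Hochberg. P-values measure only the spread between pools. The alternatives were DESeq2 1.42.0, limma 3.58.1 on FPKM values of genes with a mean of at least 0.5 (log2, pseudocount 1 or 0.1) or of all genes, RLE scaling, library sizes alone, other filters, a replicate block, and each library left out in turn. Fits were tested on simulated data. Summaries and plots used Python 3.11.15 with pandas 2.3.3, numpy 2.4.6, matplotlib 3.10.9 and scipy 1.17.1.

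The members and lists were chosen with earlier results of these data known. Values in every library are given for the alpha crystallins, each member called in either comparison and the 3 beta and 3 gamma crystallins of highest mean FPKM, and genes of the lens lists called in either comparison are named. Symbols came from a reference table of names, and for 8 members from the study's tables. Some list symbols were matched without the letter of a paralog. Where the table gives 1 symbol to 2 genes, the identifier is printed.

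Sibling and mutant libraries share replicate numbers in their labels. Over 22043 genes, deviations from the group means correlated at 0.364, 0.352 and 0.454 for the same number. For different numbers the correlations were −0.277 to −0.0949. Deviations cancel out within a group, so these negative values are not separate evidence of pairing. Pools with equal numbers were therefore paired in the fits with the replicate block. All other fits, those behind the main counts of called members included, leave the pairing out. What a number stands for is not stated. Protein and promoter sequences were not used here.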

Additional observations from a re-analysis of the deposited data

How the results depend on the processing

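Counts of called members depended on the setting. With the 3 mutants, where 1 member was lower and 0 were higher, 0 were lower with library sizes alone (2.14% of all genes), with limma on log2(FPKM + 0.1) (2.34%) and with limma on all genes (2.2%), 7 were lower and 1 higher with DESeq2 (7.22% and 7.39%), and 11 were lower and 1 higher with the replicate block (6.61% and 6.09%). Leaving out each library gave 0 to 12 lower (0.444% to 8.17%) and 0 to 1 higher (0.993% to 8.22%). Library sizes alone moved the median of all genes to −0.11. With mutants 2 and 3, where 12 were lower and 0 higher, 7 were lower with limma on log2(FPKM + 0.1) (7.58%) and 6 with limma on all genes (5.81%), all of them among the 12. The replicate block gave 24 lower, the 12 among them, and 3 higher (14.9% and 14.7%). Crygn1 alone was higher with at least 10 counts in every library, with DESeq2 and with limma on log2(FPKM + 1) (8.93%, 11.2% and 7.54%). Leaving out each library gave 4 to 12 lower (1.93% to 6.59%) and 0 to 2 higher (2.85% to 6.77%). The cause of these differences was not tested. The other 92 counts and class medians moved by less than 1.5 times or the spread between replicates. Of single genes, 8 values changed sign, none of them in a called gene. Across the fits that each leave out 1 library, the estimate with the 3 mutants ranged from −0.71 to 0.024 for cryab (ENSDARG00000101380), from −0.39 to 0.30 for crygmx and from −0.54 to 0.18 for cryba2, and with mutants 2 and 3 from −0.77 to 0.39 for cryab (ENSDARG00000101380) and from −0.32 to 0.035 for crygm2d8. The replicate block gave 0.13 for this cryab gene in mutants 2 and 3.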
